A study of Mus musculus with 36 samples.

Results

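The genes described here encode 10 subunits of the BAF family of chromatin remodelers, the mammalian SWI/SNF complexes: the ATPases Smarca2 (BRM) and Smarca4 (BRG1), the core scaffold proteins Smarcc1 (BAF155) and Smarcc2 (BAF170), the BAF60 proteins Smarcd1, Smarcd2 and Smarcd3, and the ARID proteins Arid1a, Arid1b and Arid2. They were selected by gene name, and all 10 were found among the 21442 genes of the count table. RNA-seq was performed in 36 mouse libraries, 3 for each of 12 groups, which combine 6 stages with 2 genotypes. Stages run from mouse embryonic fibroblasts (MEFs) over cells at days 3, 5 and 7 (D3, D5 and D7) of reprogramming to induced pluripotent stem cells to established clones of those cells (iPS), with embryonic stem cells (ESC) beside them. The genotypes were control (WT) and knockout (KO) of Zfp266, a KRAB zinc finger gene, and the comparisons ask how subunit transcripts differed between stages and between genotypes at each stage.

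All cells that were reprogrammed, and the ESCs, came from 1 line, Cas9 TNG MKOS, of E14Tg2a origin with a 129 background. It carries Cas9 under the EF1α promoter at Rosa26, a Nanog-GFP reporter and a doxycycline-inducible cassette of Myc, Klf4, Oct4 and Sox2 with mOrange. The MEFs were derived from mid-gestation chimeric embryos and used at passage 2. According to the paper, the host embryos for aggregation came from B6CBAF1 females. The unsorted MEF libraries may therefore hold cells of that strain, and their share is not given in the sources used here. WT MEFs received a non-targeting sgRNA by lentivirus, KO MEFs an sgRNA against Zfp266, and both were collected 96 h later. Reprogramming of MEFs transduced in the same way used 300 ng/ml doxycycline and 10 µg/ml vitamin C, with the Cas9 MEFs mixed into wild-type MEFs of the 129 strain, and mOrange+ cells expressing the factors were sorted at D3, D5 and D7. KO at the MEF, D3, D5 and D7 stages was therefore an edited population and not a clone, and the sorted D3 libraries differ from the unsorted MEF libraries in handling as well as in stage. The iPS libraries were clones of Nanog-GFP+ cells lifted at day 15 and selected in 1 µg/ml puromycin without doxycycline. The 3 WT ESC libraries came from 1 parental line, Clone J, and the 3 KO ESC libraries from clones edited from it. Whether the MEF and D3 to D7 replicates came from separate embryos is not given in the sources used here, so p-values measure the spread between these samples, which may be technical in part.

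BAF complexes use the energy of ATP to slide or evict nucleosomes and so open regulatory DNA. Each complex holds either BRG1 or BRM as its motor and draws on several paralogous subunit families, so that cell types differ in which paralogs they use. ARID1A or ARID1B defines the canonical BAF complex and ARID2 the related PBAF complex. Embryonic stem cells are known for a complex, esBAF, that is built with BRG1, BAF155 and BAF60A and lacks BRM and BAF170.

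In the GRCm38 annotation (GENCODE M21), Smarca2 (ENSMUSG00000024921) lies at chr19:26605050-26778322 on the plus strand and Smarca4 (ENSMUSG00000032187) at chr9:21616169-21704230 on the plus strand. Smarcc1 (ENSMUSG00000032481) lies at chr9:110117708-110240178 and Smarcc2 (ENSMUSG00000025369) at chr10:128459248-128490482, both on the plus strand. Smarcd1 (ENSMUSG00000023018) lies at chr15:99702129-99713991 on the plus strand, Smarcd2 (ENSMUSG00000078619) at chr11:106263179-106272972 and Smarcd3 (ENSMUSG00000028949) at chr5:24590818-24624411, the last pair on the minus strand. Arid1a (ENSMUSG00000007880) lies at chr4:133679008-133756769 on the minus strand, Arid1b (ENSMUSG00000069729) at chr17:4994332-5347656 and Arid2 (ENSMUSG00000033237) at chr15:96287518-96404992, both on the plus strand. The libraries were made with a stranded mRNA kit, but the strand setting of the read counting is not given in the sources used here. Exons of Chpf2 on the opposite strand overlap 48.2% of the merged exon length of Smarcd3, so Smarcd3 counts are uncertain. Overlaps of other members with protein-coding genes in the count table were 1.57% for Smarcc1 with Dhx30 and 7.13% for Smarcd1 with Gm17349, which averaged 5.53 normalised counts.

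The RefSeq start-site windows of the 4 members with the largest differences between WT MEFs and WT ESCs follow, because these windows belong to the genes on which the switch between paralogs turns. Each runs from 250 bases before to 50 bases after the start, in GRCm38.p6. The Smarcd3 window lies inside the annotated gene, whose 5' end is at base 24624411, and so belongs to an internal start. Capitals mark a match to a searched motif.
Smarca2, chr19:26604910-26605209, plus strand: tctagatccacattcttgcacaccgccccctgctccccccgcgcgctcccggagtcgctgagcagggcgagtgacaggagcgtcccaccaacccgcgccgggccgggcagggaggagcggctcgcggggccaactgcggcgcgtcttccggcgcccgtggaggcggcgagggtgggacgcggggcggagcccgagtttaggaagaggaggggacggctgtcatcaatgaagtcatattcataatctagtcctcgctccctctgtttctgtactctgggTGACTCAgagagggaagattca
Smarcc2, chr10:128458986-128459285, plus strand: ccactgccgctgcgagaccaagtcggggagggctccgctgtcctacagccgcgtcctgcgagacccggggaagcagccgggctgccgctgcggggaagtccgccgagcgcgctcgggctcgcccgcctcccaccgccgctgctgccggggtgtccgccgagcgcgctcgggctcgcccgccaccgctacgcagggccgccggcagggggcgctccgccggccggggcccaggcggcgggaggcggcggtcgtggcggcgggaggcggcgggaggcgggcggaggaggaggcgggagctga
Smarcd1, chr15:99702037-99702336, plus strand: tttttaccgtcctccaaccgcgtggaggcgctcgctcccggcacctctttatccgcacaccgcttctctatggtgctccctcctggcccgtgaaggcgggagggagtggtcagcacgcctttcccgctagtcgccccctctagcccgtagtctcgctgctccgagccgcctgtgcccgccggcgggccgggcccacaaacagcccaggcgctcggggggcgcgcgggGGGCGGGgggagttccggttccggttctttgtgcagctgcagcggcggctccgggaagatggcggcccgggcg
Smarcd3, chr5:24601953-24602252, minus strand: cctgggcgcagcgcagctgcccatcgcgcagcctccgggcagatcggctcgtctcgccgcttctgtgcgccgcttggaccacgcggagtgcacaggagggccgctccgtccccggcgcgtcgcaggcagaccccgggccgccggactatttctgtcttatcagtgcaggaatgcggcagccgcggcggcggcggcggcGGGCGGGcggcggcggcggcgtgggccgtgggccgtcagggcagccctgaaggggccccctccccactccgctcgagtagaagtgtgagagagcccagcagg
The motifs searched on both strands were the GC box GGGCGGG, the AP-1 site TGAGTCA, the E-box CACGTG and the octamer ATTTGCAT, and no match to one of them overlapped a match to another. Smarca2 held TGACTCA, the reverse complement of the AP-1 site, starting at base 279 of the 300. Smarcd1 held GGGCGGG from base 228 and Smarcd3 from base 199, and the Smarcc2 window held none of the 4 motifs. Of the 9 members with an entry, 6 held a GC box in at least 1 window, 1 held the AP-1 site and 0 held the E-box or the octamer. Among 32851 start-site windows the shares with a match were 25.6%, 5.20%, 7.15% and 1.74%. These are shares of windows, whereas the members were counted as genes. For Arid1a and Smarcc1 the window with the GC box lay inside the annotated gene, and the Arid1a window at the 5' end held none of the 4 motifs. The members' windows held 4 to 48 CpG dinucleotides, against a median of 7 over all windows. The lowest count was that of Smarcd2, whose window also lies inside its annotated gene. Arid2 had no entry.

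Library depth ranged from 19224103 to 39610939 counts, with a median of 31644436, and the members' raw counts ranged from 16 to 17439 per library. Replicates differed by 3.16 to 103 times the counting variance, so no library was a copy of another. Zfp266 counts lay between 2828 and 3096 in WT MEFs and between 3072 and 3293 in KO MEFs, but the edit acts on a short stretch of the coding sequence and a gene-level count does not test it. The 8 MEF markers summed to 418161 to 433962 normalised counts in WT MEFs and to 122 to 142 in WT ESCs. Those of the 8 pluripotency markers rose from 19.7 to 30.8 in WT MEFs to 114451 to 121838 in WT ESCs. MEF KO replicate 3 stood apart, with 5447 normalised Smarca4 counts against 10619.7 and 10289 in the other KO MEF libraries and 3071 Arid1a counts against 6623 and 6269. MEF results are therefore given with this library and without it. Over all genes, D7 WT replicate 1 differed from the other WT D7 libraries by 44.0 and 42.3 times the counting variance, against 6.02 between those, and D3 WT replicate 2 by 47.6 and 38.0, against 8.52. Without D7 WT replicate 1, 5 members were still called between genotypes at D7, and without D3 WT replicate 2, 8 were called in WT D3 over MEF in place of 9. In bulk libraries, fewer cells of a type and less RNA per cell cannot be told apart.

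Along WT cells, the 10 genes did not move together: between MEFs and ESCs, 4 of 10 were higher and 6 of 10 lower at FDR below 0.05, where FDR is the DESeq2 Wald p adjusted over all genes by Benjamini-Hochberg. This is 10 of 10 called, with 79.3% of all 21436 tested genes called in the same comparison (40% higher and 39.4% lower), so that the count itself sets the members little apart. Of the 10, 1 was higher and 4 were lower by a log2 fold change beyond 1 (55.4% of all tested genes passed that rule, 26% higher and 29.4% lower). The median log2 fold change of the members was -0.58, against 0.05 over all tested genes. At the first step, D3 over MEF, 9 of 10 members were called, 3 higher and 6 lower, where 70.9% of tested genes were called (33.8% higher and 37.1% lower). From D3 to D5 none of the 10 was called by DESeq2 (2 had an unadjusted p under 0.05, and edgeR called 0), where 25.1% of genes were. From D5 to D7, 3 members rose, where 24.1% were called and 13.5% were higher. From D7 to iPS 7 were called, 4 higher and 3 lower, where 73.5% were called (35.8% higher and 37.7% lower). From iPS to ESC 1 was called, where 3.2% were.

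**Figure D1:**
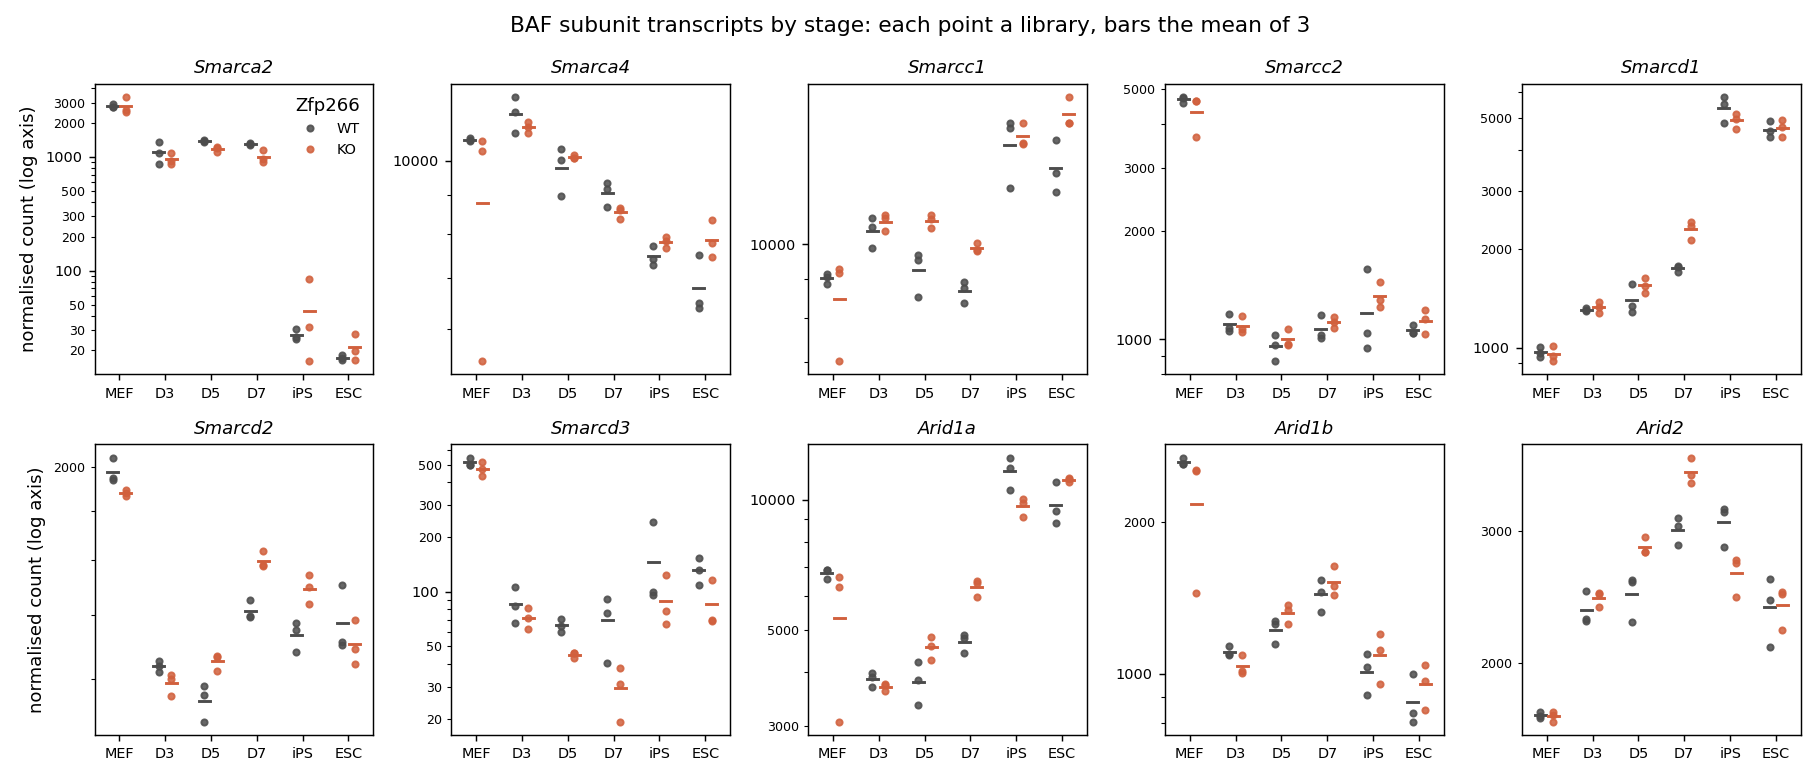
Normalised counts of the 10 subunit genes on a log axis, by stage, with WT in grey and KO in orange. Each point is a library and each bar the mean of 3 libraries; Smarca2 falls from 2807 in WT MEFs to 17.3 in WT ESCs while Smarcd1 rises from 968 to 4618.

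Of the ATPases, Smarca2 was the member with the largest change. It stood at 2736, 2928 and 2757 normalised counts in WT MEFs and at 1362, 865 and 1082 in WT D3 cells. All D3 values lay below all MEF values, and the gene fell by 1.35 ± 0.21 on the log2 scale (SE, FDR = 7.73e-10). It then stayed between 1269 and 1413 in the WT libraries of D5 and D7. In WT iPS clones it stood at 25.0, 31.0 and 26.0, and the step from D7 was -5.57 ± 0.26 (FDR = 4.6e-100). WT ESCs held 17.1, 18.2 and 16.5, and the iPS to ESC step of -0.67 ± 0.33 was not called (FDR = 0.23). From MEFs to ESCs the log2 fold change was -7.35 ± 0.29. Smarca4, the other motor, stayed within narrower limits. It stood at 10635, 10616 and 10712 in WT MEFs and between 10879 and 12132 in WT D3 cells, without overlap. The D3 value of Smarca4 did not differ by the test (0.11 ± 0.13, FDR = 0.451) with the spread shared by all groups. It was called with the compared groups fitted alone (FDR = 0.000304). WT ESCs held 6397, 6497 and 7513, all below MEFs, a log2 fold change of -0.65 ± 0.13 (FDR = 1.67e-06). The D7 to iPS step of -0.28 (FDR = 0.0464) lost its call in 10 of 12 alternative fits.

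Of the scaffold genes, Smarcc2 fell early and stayed low. WT MEFs held 4706, 4749.8 and 4564 normalised counts, and WT D3 cells 1077, 1057 and 1175. The groups did not overlap, and the log2 fold change was -2.08 ± 0.12 (FDR = 3.54e-62). No later WT step was called for it, and WT ESCs, at 1044, 1039 and 1094, lay close to D3. Smarcc1, its paralog and a core part of esBAF, rose modestly. It stood at 9148, 9042 and 8861 in WT MEFs and at 9892, 10843 and 10529 in WT D3 cells, a log2 fold change of 0.21 ± 0.08 (FDR = 0.0175) that lost its call without MEF WT replicate 3 or D3 WT replicate 2. The larger step was from D7 to iPS, where the 3 WT clones reached 14226, 11862 and 14477 against 8764, 8363 and 8916. There it rose by 0.64 ± 0.08 on the log2 scale (FDR = 3.35e-14).

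Among the BAF60 genes, Smarcd1 was the one that rose through the series. WT MEFs held 936, 963 and 1005 normalised counts, WT D3 cells 1301, 1317 and 1298, and WT D7 cells 1779, 1706 and 1758. WT iPS clones held 5527, 5813 and 4828, and WT ESCs 4391, 4565 and 4898. Every WT D3 value lay above the MEF values and every iPS value above the D7 values. The log2 fold changes were 0.43 ± 0.08 from MEF to D3, 0.32 ± 0.08 from D5 to D7 (FDR = 0.00033) and 1.62 ± 0.07 from D7 to iPS (FDR = 2.26e-104). Smarcd2, the paralog that was highest per kilobase in MEFs, fell from 2045, 1936 and 1946 in WT MEFs to 1220.4, 1238 and 1255 at D3. That log2 fold change was -0.67 ± 0.05 (FDR = 5.17e-35). It rose by 0.31 ± 0.05 from D5 to D7 (FDR = 4.21e-07) and ended in ESCs at 1313, 1304 and 1507. Smarcd3, known from muscle and heart BAF complexes, fell from 548, 501 and 501 in WT MEFs to 83.4, 67.0 and 107 at D3, a log2 fold change of -2.59 ± 0.30 (FDR = 2.17e-17). In WT iPS clones it stood at 95.9, 243 and 100.2 against 40.6, 91.6 and 76.1 at D7. The step of 1.08 ± 0.31 (FDR = 0.000814) was 0.50 (FDR = 0.0977) without iPS WT replicate 2. Over the same step the overlapping gene Chpf2 went from a mean of 1071 to 253 normalised counts, opposite in direction to Smarcd3, and from MEF to D3 from 2878 to 1283; the part of shared reads in the Smarcd3 counts was not tested.

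The ARID genes took separate courses. Arid1a, the defining subunit of the canonical complex in esBAF, stood at 6884, 6867 and 6572 normalised counts in WT MEFs and at 3694, 3896 and 3969 in WT D3 cells. It fell by 0.81 ± 0.15 on the log2 scale (FDR = 2.8e-07). WT iPS clones held 11848, 12498 and 10546 against 4871, 4426 and 4798 at D7, a rise of 1.31 ± 0.15 (FDR = 6.32e-17). The gene therefore first fell and later rose past its MEF level, which it exceeded in ESCs by 0.52 ± 0.15 (FDR = 0.000988). Arid1b, its mutually exclusive paralog, fell from 2680.0, 2599 and 2597 in WT MEFs to 1136, 1093 and 1089 at D3. That change was -1.25 ± 0.14 (FDR = 3.61e-19), and a further -0.51 ± 0.14 followed from D7 to iPS (FDR = 0.000389). Arid2, the PBAF subunit, rose at D3 from 1696, 1719 and 1687 to 2491, 2289 and 2275, by 0.47 ± 0.07 (FDR = 3.14e-10), and again from D5 to D7 by 0.29 ± 0.07 (FDR = 0.000537). It was the 1 member called from iPS to ESC, with 3182, 3211 and 2855 in WT iPS clones and 2098, 2428 and 2592 in WT ESCs (-0.38 ± 0.07, FDR = 7.64e-05); this call was lost when only the compared groups were fitted.

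Levels within a family can be compared only per length, so each normalised count was divided by the merged exon length in kilobases and expressed as a share of the family. Smarca2 made up 10.7% ± 0.385 (SD, n = 3) of the ATPase level per kilobase in WT MEFs, 6.09% ± 0.109 at WT D7 and 0.116% ± 0.0144 in WT ESCs. Smarcc2 fell from 42.2% ± 0.286 of the scaffold level in WT MEFs to 13.0% ± 0.802 at WT D3 and 10.6% ± 0.523 in WT ESCs. Smarcd1 went from 27.0% ± 1.28 of the BAF60 level in WT MEFs to 51.6% ± 0.935 at WT D7 and 73.7% ± 0.805 in WT ESCs. Over the same stages Smarcd2 went from 61.7% ± 0.877 to 46.8% ± 0.414 and 24.6% ± 0.671. Arid1a held 61.7% ± 0.436 of the ARID level in WT MEFs, 50.9% ± 0.241 at WT D7 and 74.4% ± 0.656 in WT ESCs. Arid2 held its highest WT shares at D3 to D7, between 34.1% and 35.0%. The scaffold share moved mostly between MEF and D3, whereas the Smarcd1 share moved both there and between D7 and iPS, where it reached 76.9% ± 0.727. With the longest coding transcript as the length, the Smarca2 share in WT MEFs was 22.1% ± 0.693 in place of 10.7%, and in WT ESCs 0.275% ± 0.0342. The BAF60 and ARID shares depend on this choice too. Merged exons and longest coding transcript had 5120 and 1735 bases for Smarcd3, and 11476 and 8187 for Arid1a. The SDs do not include this uncertainty.

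**Figure D2:**
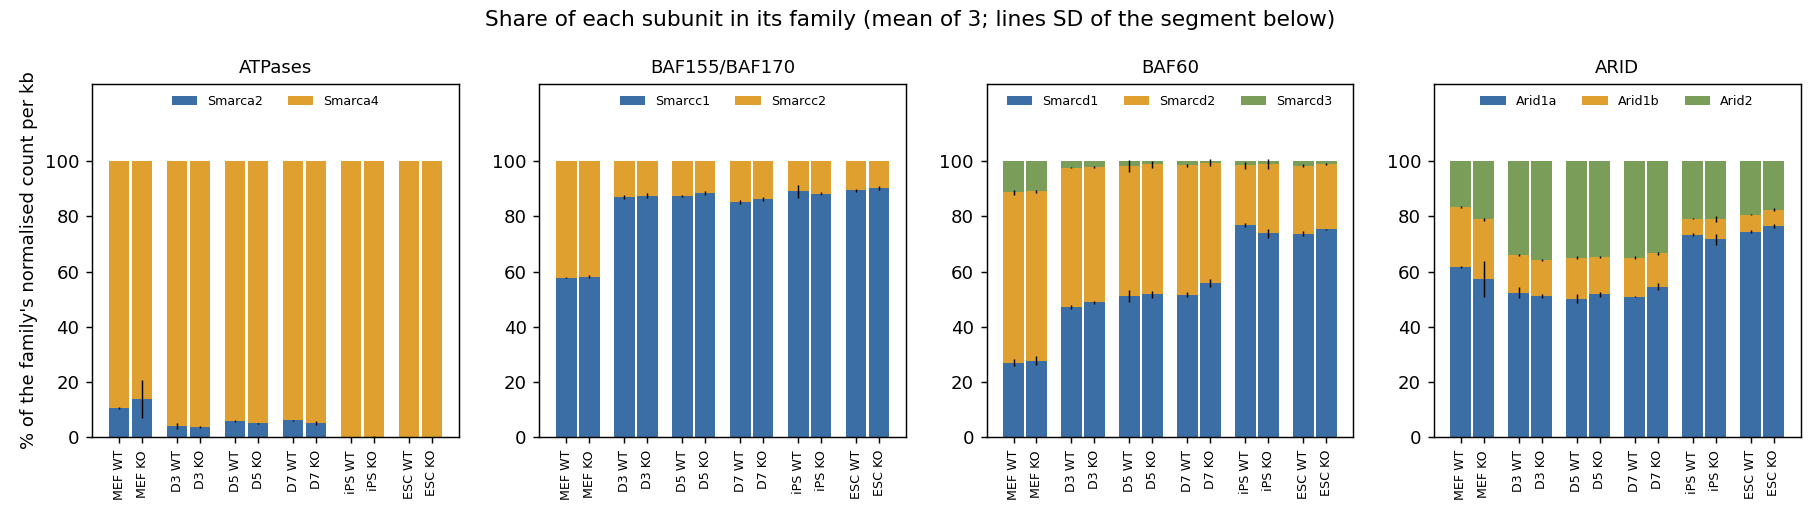
Share of each subunit in its family's normalised count per kilobase, in percent, for 12 groups. Segments are means of 3 libraries, and lines the SD of the segment below them; the Smarcc2 segment shrinks from 42.2% to 13.0% between WT MEF and WT D3, and the Smarca2 segment is no longer visible in iPS and ESC.

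Between genotypes, the differences were smaller, and calls were most frequent at D7, as they were over all tested genes. In MEFs and at D3 none of the 10 members was called by DESeq2. In MEFs 3 members had an unadjusted p under 0.05 and edgeR called 0, where 0.0428% of 21020 tested genes were called; at D3 no member had such a p and edgeR called 0, where 0.493% of genes were called. The MEF log2 fold changes ran from -0.35 to 0.01 with all 3 KO libraries and from -0.19 to 0.03 once MEF KO replicate 3 was left out. In the fit lacking MEF KO replicate 1, Arid1a alone was called (-0.54, FDR = 0.049). At D5, 1 of 10 was called (7.15% of tested genes were), and at D7 5 of 10, 4 higher and 1 lower in KO (29.4% of tested genes, 13.3% higher and 16.1% lower). In iPS clones 2 of 10 were called (16.3%) and in ESCs 1 of 10 (10.1%). WT and KO libraries did not overlap for 6 members at D5, where 28.5% of all genes did not, and for 8 at D7, where 46.7% did not.

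**Figure D3:**
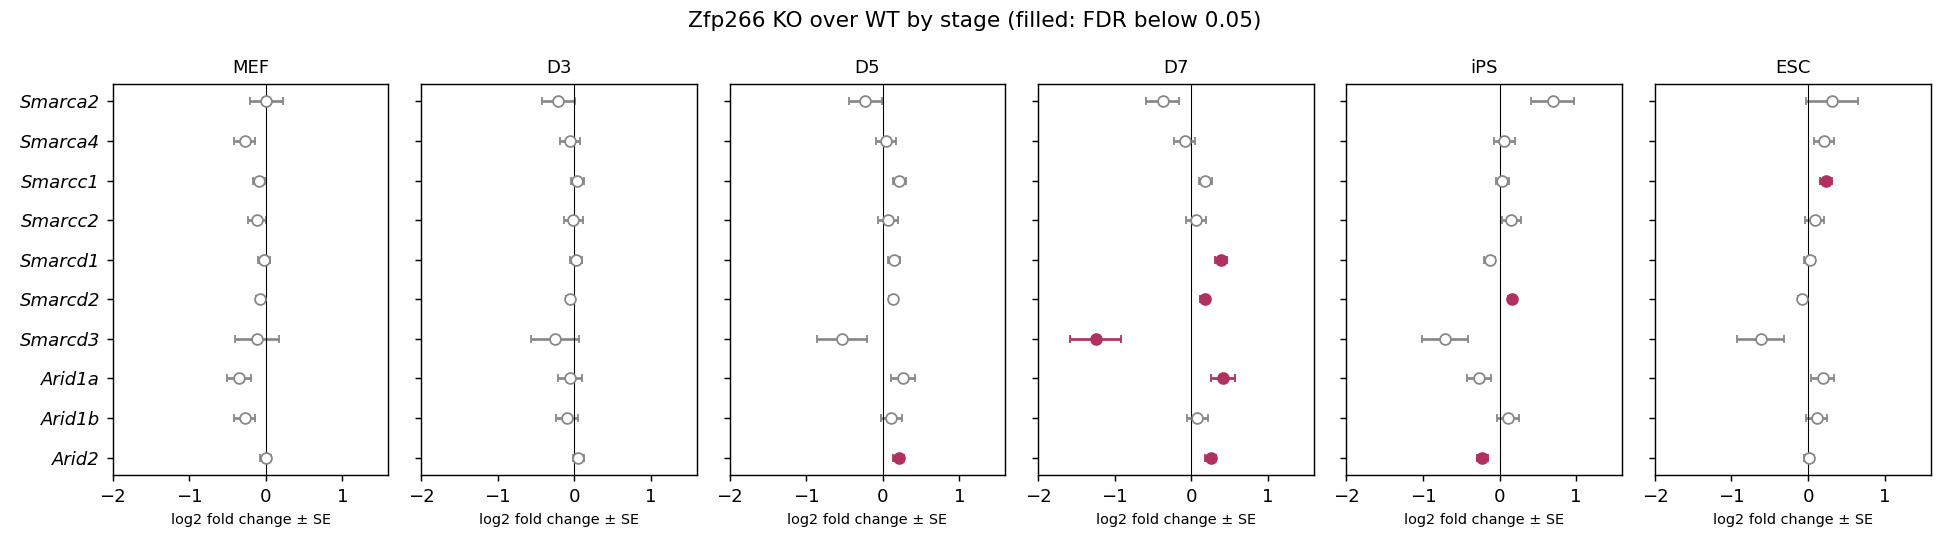
Log2 fold change of KO over WT for the 10 subunit genes at each stage, with bars for the SE and filled points for FDR below 0.05. Filled points are 5 at D7, 2 in iPS clones, 1 at D5, 1 in ESC and 0 in MEF and D3.

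At D7, Smarcd1 stood at 2342, 2407 and 2132 normalised counts in KO against 1779, 1706 and 1758 in WT. Every KO library lay above every WT library, and the log2 fold change was 0.39 ± 0.08 (FDR = 3.16e-06), a 1.31-fold difference. The call held in all 12 alternative fits. Smarcd2 stood at 1634, 1579 and 1577 in KO against 1398, 1395 and 1451 in WT, again without overlap, a log2 fold change of 0.17 ± 0.05 (FDR = 0.00498). Smarcd3 was lower, at 38.2, 19.3 and 30.9 in KO against 40.6, 91.6 and 76.1 in WT. The nearest values of the groups, 38.2 and 40.6, almost met, and the log2 fold change was -1.25 ± 0.34 (FDR = 0.00139). Smarcd3 was the 1 member past the rule of FDR below 0.05 and log2 fold change beyond 1, which 8.37% of tested genes passed (3.95% higher and 4.42% lower); without D7 WT replicate 2 its log2 fold change was -0.995 (FDR = 0.031), and without D7 WT replicate 1 it was -1.52. Chpf2, which shares exons with it, had means of 780.3 in KO and 1071 in WT.

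Of the ARID genes, Arid1a and Arid2 were also higher in D7 KO cells. Arid1a stood at 6403, 5947 and 6488 normalised counts in KO against 4871, 4426 and 4798 in WT, a log2 fold change of 0.42 ± 0.15 (FDR = 0.0256). The groups did not overlap, but the adjusted call was lost without D7 WT replicate 2 or 3 or without D7 KO replicate 1 or 3, with an FDR of up to 0.0965. Arid2 stood at 3762, 3479.6 and 3564 in KO against 3044, 2876 and 3125 in WT, 0.26 ± 0.07 (FDR = 0.00148), and was also the 1 member called at D5, with 2811, 2817 and 2945 in KO against 2579, 2269.6 and 2567 in WT. That D5 difference of 0.21 ± 0.07 (FDR = 0.0419) was not called by edgeR or without any of 5 of the 6 D5 libraries. Arid1b did not differ by the test at D7 (0.08 ± 0.14, FDR = 0.72).

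The remaining members at D7 were not called. Smarca2 stood at 1156, 953 and 901 normalised counts in KO against 1329, 1269 and 1291 in WT. The libraries did not overlap, yet the log2 fold change of -0.37 ± 0.21 had an FDR of 0.198 with the spread shared by all groups and of 0.00351 with the D7 libraries fitted alone. Smarcc1 stood at 9786, 10029 and 9840.3 in KO against 8764, 8363 and 8916 in WT, 0.19 ± 0.08 (FDR = 0.0727), and was called in 4 of 12 alternative fits, edgeR among them. Smarca4 (-0.09 ± 0.13) and Smarcc2 (0.06 ± 0.13) had FDR values of 0.691 and 0.772. Marker genes moved with genotype at the same stage. All 8 pluripotency markers had every KO library above every WT library at D7, where 46.7% of all genes did not overlap in either direction. The sum of these markers was 24470.1 to 32346 in KO against 5413 to 9342 in WT. The 8 MEF markers summed to 6989 to 21411 in KO and to 22111 to 34049.7 in WT, with no overlap for 3 of 8, lower in KO. Epithelial markers (5 of 5 found) summed to 54694 to 57028 in KO and 55538 to 60992 in WT. Of these 5, 2 were higher and 2 lower in KO without overlap. Endothelial markers (4 of 4) gave 3288 to 3401 against 1028 to 1291, with all 4 higher in KO without overlap. The same 4 markers summed to 1385 to 1555 in WT ESCs and to 82.8 to 113 in WT MEFs, so they were not particular to endothelial cells here. Blood markers (3 of 4) gave 470.1 to 505 against 289 to 354, with 1 of 3 higher without overlap. Neural markers (4 of 4) gave 6301 to 7651 against 12765 to 14371, with all 4 lower without overlap. None of the 6 marker lists had a gene at 0 in all D7 libraries of a genotype, and the part of these shifts in the subunit differences was not tested.

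In the pluripotent end states, the calls were few and small. Smarcd2 stood at 1438, 1499 and 1541 normalised counts in KO iPS clones against 1372, 1349 and 1281 in WT, 0.16 ± 0.05 on the log2 scale (FDR = 0.0185), and was not called by edgeR. Arid2 was lower in KO clones, at 2748, 2450.4 and 2720.4 against 3182, 3211 and 2855 (-0.22 ± 0.07, FDR = 0.0122). Each of these calls was lost in 4 of 12 alternative fits: both with the compared groups alone, Smarcd2 without iPS WT replicate 3 or iPS KO replicate 3, and Arid2 without iPS WT replicate 1, iPS WT replicate 2 or iPS KO replicate 2. Smarca2 in KO clones was spread from 16.2 to 84.9, with 84.9 in replicate 1 alone far above the WT values of 25.0 to 31.0, and its difference of 0.69 ± 0.29 was not called (FDR = 0.0797). In ESCs Smarcc1 stood at 15655, 14439.6 and 14476 in KO against 11735, 12413 and 13713 in WT. The libraries did not overlap (29.5% of all genes did not), and the log2 fold change of 0.24 ± 0.08 (FDR = 0.0448) lost its call in 7 of 12 alternative fits, edgeR among them.

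Whether a stage step differed between genotypes was tested directly as the KO step minus the WT step. For D3 over MEF none of the 10 members was called by DESeq2 or edgeR, and none had an unadjusted p under 0.05 (0.112% of tested genes were called). For D7 over D3, 2 of 10 were called, both higher (13% of tested genes, 5.82% higher and 7.19% lower), with Smarcd1 rising more in KO by 0.37 ± 0.11 (FDR = 0.00964) and Smarcd2 by 0.23 ± 0.08 (FDR = 0.0222). For iPS over D7, 4 of 10 were called, 1 higher and 3 lower (21.9% of tested genes, 12.1% higher and 9.76% lower). The KO step minus the WT step was -0.52 ± 0.10 for Smarcd1 (FDR = 1.66e-05), -0.69 ± 0.22 for Arid1a (FDR = 0.0109) and -0.48 ± 0.10 for Arid2 (FDR = 2.46e-05). Smarca2 fell less, with a difference of 1.06 ± 0.36 (FDR = 0.0184) that dropped to 0.22 (FDR = 0.716) without iPS KO replicate 1. The Smarca2 call was also lost with edgeR and with the compared groups alone. For ESC over MEF none was called by DESeq2 or edgeR, 4 had an unadjusted p under 0.05, and 5.63% of tested genes were called. Without MEF KO replicate 3 the count was also 0, but it was 3 when either of the other KO MEF libraries, replicate 1 or 2, was left out, and 2 when ESC WT replicate 3 was.

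The ratio of 2 subunit genes within a library depends little on how libraries are scaled, and 5 such ratios were compared. Each is the log2 of the first gene's normalised count plus 1 over that of the second. Arid2/Arid1a sets the PBAF gene against a canonical BAF gene, so it compares genes of different complexes. Over D3, D5 and D7 the Smarcd3/Smarcd1 ratio in KO minus that in WT was -0.83 on average, with -0.25 at D3, -0.67 at D5 and -1.58 at D7 (two-sided exact permutation test within days, p = 0.00125, adjusted p = 0.00625 by Benjamini-Hochberg over the 5 pairs). At D5 and D7 all KO libraries lay below all WT libraries. This ratio rests on Smarcd3, which held 19.3 to 107 normalised counts at D3 to D7 and shares exons with Chpf2. The same difference was -0.18 for Arid1b/Arid1a (exact permutation p = 0.004, adjusted 0.01), with -0.04, -0.16 and -0.34 at the 3 days, and did not pass with group medians in place of means (-0.15, adjusted exact permutation p = 0.0767). It was -0.23 for Smarca2/Smarca4 and -0.11 for Smarcc2/Smarcc1 (exact permutation p = 0.0215 and 0.0213, adjusted 0.0269 for both), with KO below WT in the mean at each day. Without D3 WT replicate 1, D3 KO replicate 2 or D3 KO replicate 3 neither of these last 2 ratios passed (adjusted exact permutation p up to 0.0747), and Smarcc2/Smarcc1 did not pass without D3 WT replicate 3 or D7 WT replicate 3 either. Smarca2/Smarca4 did not pass with group medians (adjusted exact permutation p = 0.08). Smarcc2/Smarcc1 did not pass with the replicate number as a block (adjusted exact permutation p = 0.0586). Arid2/Arid1a did not differ by the test (-0.03, exact permutation p = 0.44). A single day, with 3 libraries against 3, cannot give a p below 0.1. In iPS clones the Arid1b/Arid1a ratio in KO minus that in WT was 0.37, opposite in direction to the days. There all KO libraries lay above all WT libraries. For the same ratio the groups overlapped in MEFs (0.10, with MEF KO replicate 3 included) and in ESCs (-0.08).

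**Figure D4:**
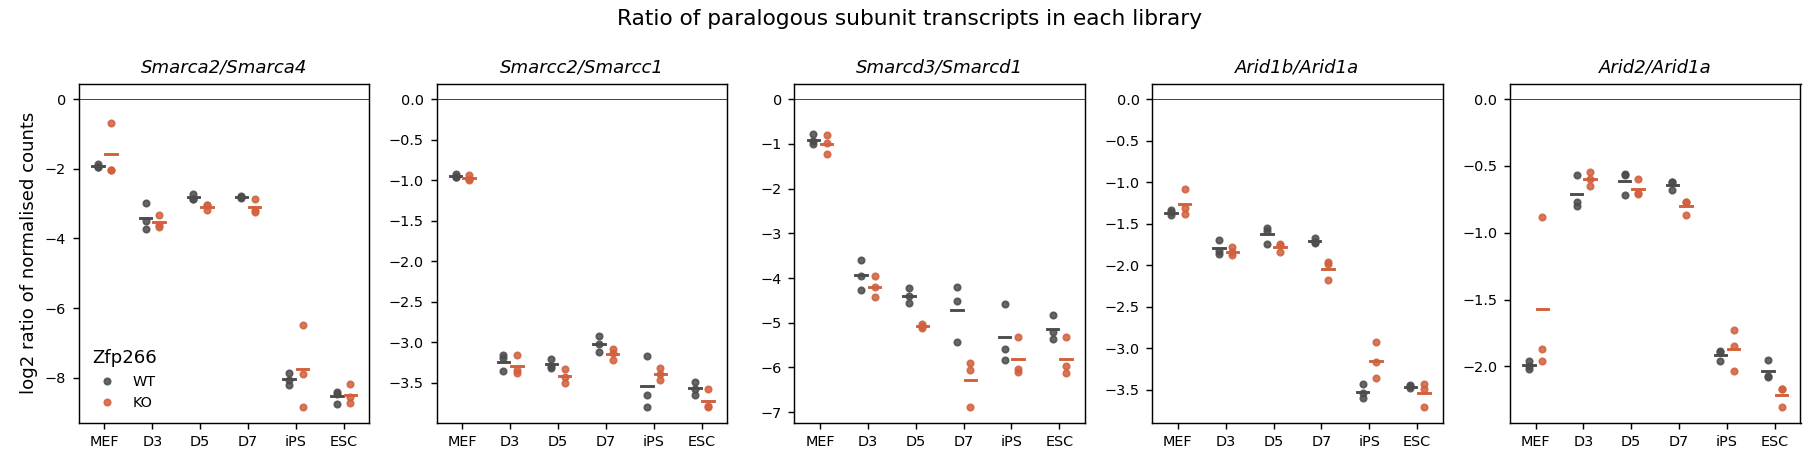
Log2 ratio of normalised counts of 2 subunit genes in each library, by stage, with WT in grey and KO in orange and bars for the mean of 3. Smarca2/Smarca4 falls from a mean of -1.92 in WT MEF to -8.54 in WT ESC, and Smarcd3/Smarcd1 lies at -6.29 in D7 KO against -4.71 in D7 WT.

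Between the ends of the series, all 5 ratios were lower in ESCs than in MEFs over both genotypes. The differences were -6.76 for Smarca2/Smarca4, -4.52 for Smarcd3/Smarcd1, -2.69 for Smarcc2/Smarcc1, -2.19 for Arid1b/Arid1a and -0.35 for Arid2/Arid1a. Every one of the first 4 had the exact permutation p = 0.005, the smallest that 400 relabelings allow, and an adjusted p of 0.00625. For Arid2/Arid1a the exact permutation p was 0.02, also after adjustment. Its difference was -0.04 in WT and -0.65 in KO, it was -0.17 without MEF KO replicate 3, and it did not pass without ESC KO replicate 1, 2 or 3 (adjusted exact permutation p up to 0.17).

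The other BAF family genes moved unevenly as well. Of 19 found, 17 were called between WT MEFs and WT ESCs (9 higher and 8 lower), where 79.3% of all tested genes were, with a median log2 fold change of -0.20 against 0.05 over all tested genes. Actl6a, the BAF53A actin-related subunit of esBAF, rose from 1273 ± 75.8 normalised counts (SD, n = 3) to 6224 ± 300.4, a log2 fold change of 2.29 ± 0.06. Bicral, a subunit of the noncanonical BAF complex, rose by 2.27 ± 0.10 and its paralog Bicra fell by 1.27 ± 0.14. Bcl7a rose by 1.18 ± 0.13 and Bcl7c fell by 1.04 ± 0.13, both accessory subunits, and Phf10, a PBAF subunit, rose by 1.11 ± 0.12. Bcl11b, a zinc finger subunit, fell by 3.17 ± 0.33. At D7, 3 of 19 were higher and 3 lower in KO, a share close to the 29.4% of all tested genes called there (13.3% higher and 16.1% lower). Bicral stood at 1866, 1902 and 1552 in KO against 796, 772 and 669 in WT, and rose by 1.25 ± 0.10 (FDR = 1.12e-31). All 3 KO libraries lay far above WT. Actl6a (0.33 ± 0.06) and Dpf2 (0.34 ± 0.05), a PHD finger subunit, were also higher, while Phf10 (-0.35 ± 0.11), Bcl11b (-0.93 ± 0.31) and Bcl11a (-1.26 ± 0.37), a zinc finger subunit like Bcl11b, were lower. Exons of Actl6a, Phf10 and Bicral overlap genes on the opposite strand over 11.6%, 9.57% and 11.3% of their length.

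**Figure D5:**
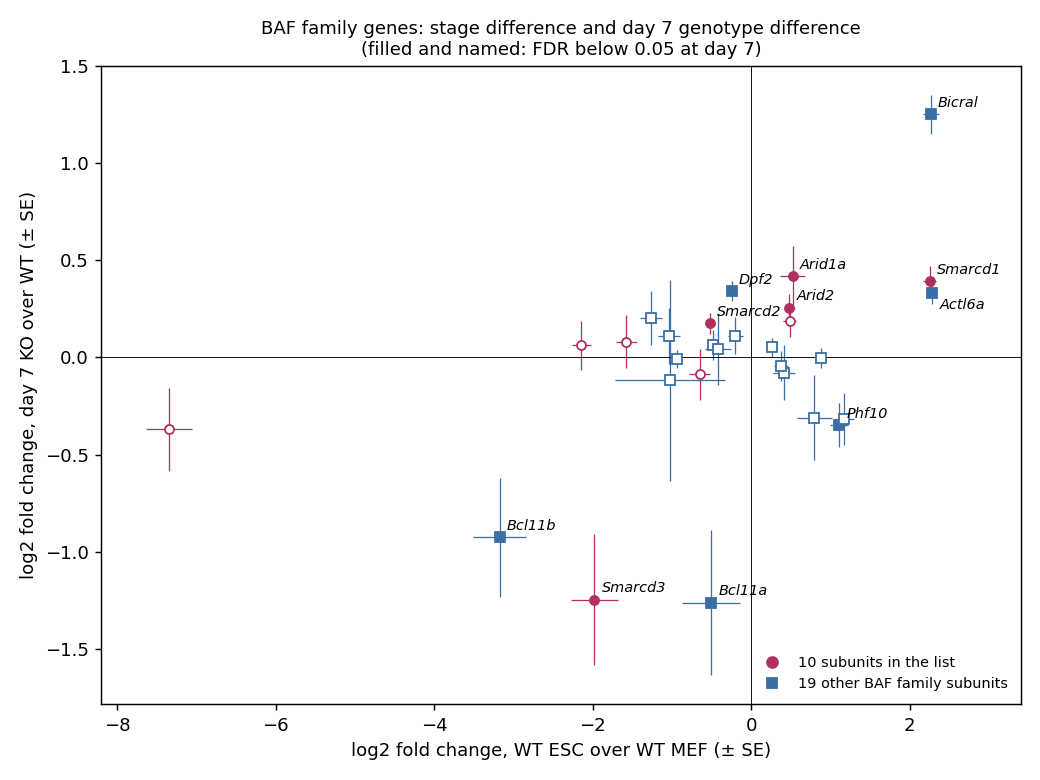
Log2 fold change of WT ESC over WT MEF (horizontal) against that of D7 KO over WT (vertical), with SE bars, for 10 subunit genes (circles) and 19 other BAF family genes (squares); the comparisons share no library. Filled and named points have FDR below 0.05 at D7, and of the 5 filled circles 4 have the same sign on both axes, Smarcd2 being the exception.

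The comparisons of D7 genotypes and of WT ESC with WT MEF share no library. Among the 10 members, 7 had the same sign in both, and among the 5 called in both 4 did. Over all 21020 genes tested in both, 61.0% had the same sign, and 74.6% of the 5362 called in both did, so the members' counts lie near those shares. Among the 19 other BAF genes, 7 had the same sign, and 3 of the 5 called in both. For the 16 ATPases of other remodeler families, 10 had the same sign. Of these ATPases, 6 were higher and 1 lower in D7 KO, where 29.4% of tested genes were called, with a median of 0.21 against -0.04 over all tested genes. In WT ESCs 8 were higher and 4 lower than in WT MEFs, where 79.3% were called.

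Among genes that are no members, those whose group means followed a subunit most closely over the 12 groups were named from 13275 genes with a mean of at least 100 normalised counts. For Smarca2 they were Tut7, Sh3glb1 and B3galnt1, with Pearson correlations of 0.997, 0.996 and 0.996 on the log2 scale. Smarcd1 was followed by Cbx7 (0.998), Zfp982 (0.997) and Zfp980 (0.996). Smarcc2 was followed by Tsc22d2 (0.997), Dusp4 (0.994) and Ppp1r3b (0.992). Smarcd3 was followed by Mpdz (0.985), Zfp719 (0.978) and Setbp1 (0.975), and Arid1b by Dubr (0.987), Mbd5 (0.987) and Tnrc18 (0.985). Among the members themselves, Smarca2 and Smarcd1 ran most against each other (-0.96), and Smarcc2 followed Smarcd3 (0.88) and Smarcd2 (0.88). These correlations describe 12 points that share libraries and stages.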

How the data were processed

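RNA-seq reads were quality-checked with FastQC, trimmed with cutadapt, mapped with STAR to GRCm38 and counted per gene with Rsubread by the authors, who deposited raw counts and counts divided by DESeq2 size factors, here called normalised counts (a signal value, per the labels and values). The strand setting and library preparation dates, which could be batches, are not given in the sources used here, so within-batch values were not computed. The authors' rlog values and their comparison tables, which hold fold changes and p-values, were not used except for the gene names. Groups were taken from the sample titles. Raw counts of all genes were fitted with DESeq2 1.42.0 (R 4.3.3) as 1 factor of 12 groups, with default filtering and without shrinkage. Called means FDR below 0.05. Of 21442 genes 21417 were found in GENCODE M21. The exact permutation tests and edgeR 4.0.16 quasi-likelihood fits were checked, with the DESeq2 fit, on simulated data. Members, gene lists and tests were chosen with earlier results of these data known. Named were all members; up to 10 other BAF genes past FDR below 0.05 and log2 fold change beyond 1 in WT ESC over WT MEF or FDR below 0.05 in D7 KO over WT; and the 3 closest genes to each member past the first rule. Marker lists were MEF, pluripotency, epithelial, endothelial, blood and neural. Alternatives were edgeR, TMM and upper-quartile scaling, a filter of 10 counts in 3 libraries, the compared groups alone, a replicate block, and leaving out each library; for ratios, a pseudocount of 10 and medians; for shares, transcript length, added after the data were seen. Actl6b and Hbb-bs were not analysed here.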

Additional observations from a re-analysis of the deposited data

Results flagged for a closer look

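In 6 cases the test of the difference between genotypes in a stage step was past the threshold. All 6 use the D7 libraries that also gave the D7 genotype differences, so they are not independent of those. For D7 over D3, the KO step exceeded the WT step by 0.37 for Smarcd1 and by 0.23 for Smarcd2 on the log2 scale. For iPS over D7, the KO step minus the WT step was 1.06 for Smarca2, which fell less in KO. That Smarca2 call rests on iPS KO replicate 1 and was also lost with edgeR and with the compared groups alone. The same difference was -0.52 for Smarcd1, -0.69 for Arid1a and -0.48 for Arid2. The Smarcd2 call for D7 over D3 was lost in 6 of 18 alternative fits. Groups of 3 libraries were too small to test for a single library that stands apart.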

How the results depend on the processing

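Of the values that answer a comparison, 346 were rated the same under an alternative. For a ratio test this means the same direction and side of the threshold. For a count of called members it means only a change of at most 1.5 times, so single calls could differ. Another 34 counts moved by over 1.5 times or to or from 0, and 16 ratio tests no longer passed. With group medians, 3 ratios no longer passed: Smarca2/Smarca4 over the days (-0.23, adjusted exact permutation p = 0.08), Arid1b/Arid1a over the days (-0.15, 0.0767) and Arid2/Arid1a between ESC and MEF (-0.19, 0.06). Counts of members called changed most with only the compared groups in the fit: 4 in place of 1 for D5 KO over WT, 0 in place of 2 for iPS KO over WT, 2 in place of 0 for WT D5 over D3, 5 in place of 3 for WT D7 over D5, 0 in place of 1 for WT ESC over iPS and 5 in place of 2 for the D7 over D3 genotype difference. With edgeR the counts were 0 for D5 KO over WT, 1 for iPS KO over WT, 0 for ESC KO over WT and 1 for the D7 over D3 genotype difference, and with upper-quartile scaling 2 for D5 KO over WT. Smarcd2 in WT iPS over D7 changed sign with upper-quartile scaling, 0.12 (FDR = 0.0398) against -0.08. That scaling moved the median of all genes by 0.21 there and by 0.30 in WT ESC over MEF, where TMM moved it by 0.11. The cause was not tested. The share of higher calls moved by over 10 points for MEF KO over WT, from 66.7% to 81.8% with upper-quartile scaling, and for the D3 over MEF genotype difference, from 75.0% to 62.5%.

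Without 1 library, the ratio differences ranged from -0.29 to -0.16 for Smarca2/Smarca4 and -0.131 to -0.093 for Smarcc2/Smarcc1 over the days, and from -0.44 to -0.17 for Arid2/Arid1a between ESC and MEF. Counts ranged from 0 to 1 for MEF, D5 and ESC KO over WT, 1 to 3 for iPS KO over WT, 1 to 2 for WT ESC over iPS and for the D7 over D3 genotype difference, and 0 to 3 for the ESC over MEF genotype difference.

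Between genotypes, correlations of the deviations of same-numbered libraries were 0.289, 0.0757 and 0.147 at D3 and 0.165, 0.0596 and 0.131 at D5. At D7 they were 0.228, 0.0809 and 0.223. All were positive but low, and the labels name no pairs, so the numbers were not read as pairs in the main tests. Whether same-numbered libraries shared a reprogramming run was not tested. With the replicate number as a block, Smarcc2/Smarcc1 over the days (-0.11, adjusted exact permutation p = 0.0586) and Arid2/Arid1a between ESC and MEF (-0.35, 0.0625) no longer passed, and ESC KO over WT had 0 members called in place of 1. The fewest reads behind a member were 16, for Smarca2 in iPS KO replicate 3, and for Smarcd3 22, in D7 KO replicate 2.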
